A study of Oryza sativa with 6 samples.

Results

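Transcripts of cell cycle and DNA replication genes were examined in rice seedlings with a T-DNA mutation of CHR729, a chromatin remodelling gene of the CHD family, and in wild-type seedlings. The genes were chosen by a rule on their names, with earlier results of these data known. A gene was taken when its symbol or synonym begins with CYC and a class letter, CDK, CDC, ORC, MCM, RPA, PCNA, E2F or KRP. The prefix Os was allowed before each name. Among the genes of the rice annotation, 73 met this rule, and 63 of them had a probe set on the array, out of 17905 genes with one. These 63 genes were read by 80 probe sets, 49 genes by a single probe set and 14 by several. The other 10 had no probe set that named them, and no gene matched by an E2F name.

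In plants, cyclins bind cyclin-dependent kinases (CDKs) and carry cells through the division cycle. D-type cyclins act mainly at the entry into DNA synthesis, A-type cyclins during synthesis and up to mitosis, and B-type cyclins at mitosis, while KRP proteins hold the kinases back. Before synthesis, the origin recognition complex (ORC) marks replication origins and loads the MCM2 to MCM7 helicase, after which replication protein A (RPA) coats single-stranded DNA and the ring-shaped clamp PCNA holds the polymerase on its template. In a seedling these transcripts are known to be concentrated in dividing tissue such as the shoot and root meristems.

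The mutant group had 3 samples labelled as biological replicates with the CHR729 T-DNA mutation, and the wild-type group had 3 of the cultivar Hwayoung. The labels give a cultivar for the wild type and none for the mutant, and do not say how many mutant lines were used or how many seedlings went into a sample. All seedlings were 11 days old and were grown in a day of 14 h light and 10 h dark on sucrose agar. The RNA of every sample was read on a separate array of the Affymetrix rice design, and the transcript of CHR729 itself is not analysed here, since no table paired it with a probe set.

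Values are MAS5 probe set signals on a linear scale, with array medians between 67.6 and 71.1 over 57258 tested probe sets. Differences are on the log2(signal + 32) scale, mutant minus wild type, with the standard error (SE) of a limma fit over all tested probe sets; the added 32 understates the change of dim probe sets. A gene rose or fell where the p adjusted over all tested probe sets was below 0.05. Where a gene had several probe sets, the one with the highest mean signal stood for it. The 3′ over 5′ signal ratio of the actin control was 6.98 to 7.03 on the mutant arrays and 6.27 to 7.93 on the wild-type arrays, and that of GAPDH was 1.70 to 2.84 on the mutant arrays and 1.47 to 2.09 on the wild-type arrays. The part of RNA quality in the results was not tested.

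Of the 63 genes, 20 rose in the mutant and 3 fell. With limma, that is 31.7% higher and 4.76% lower, where among all 17905 genes 10.9% rose and 8.71% fell. The median difference over the 63 genes was 0.11, against 0.01 over all genes. The 18 rises with a mean signal above the array median lay between 0.40 and 0.94 on the log2(signal + 32) scale. The other 2, ORC3 and ORC5, were dim, with 0.47 and 0.29. As plain ratios of mean signal, without the added 32, ORC4 and CYCB2-2 were 2.11 and 2.04 times higher in the mutant, and no other of the 63 genes differed by 2-fold or more in either direction. Of the 20 genes that rose, 14 encode ORC, MCM, RPA or PCNA proteins, 4 encode A- or B-type cyclins, 1 is the B-type kinase gene CDKB2-1 and 1 is a D-type cyclin gene. The 3 that fell were the D-type cyclin gene CYCD5-3, the kinase gene CDKF-3 and the inhibitor gene KRP4. Mutant and wild-type signals did not overlap for 28 of the 63 genes with the mutant above (44.4%) and 7 with it below (11.1%), where the shares among all genes were 23.1% and 19.8%.

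**Figure D1:**
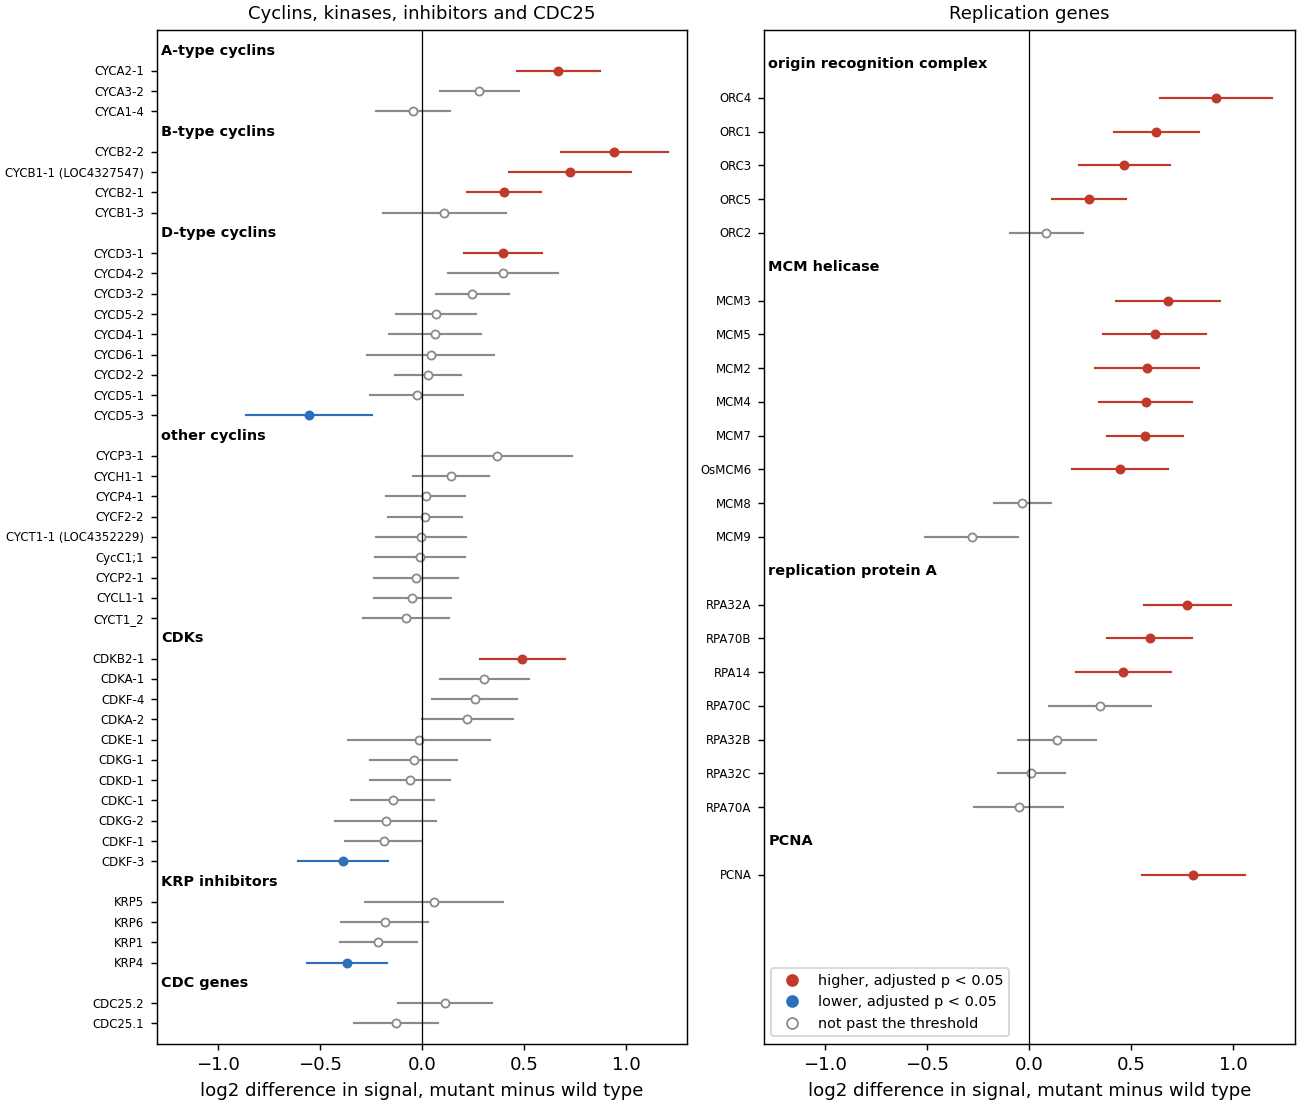
Log2 difference in signal (x axis, mutant minus wild type) with its 95% interval for each of the 63 genes, grouped by class. Filled points passed the adjusted threshold. In the right panel 14 of 21 replication genes lie to the right as filled points and none lies to the left as one. In the left panel the D-type cyclins, other cyclins, CDKs and CDC25 genes lie on both sides of 0. Of the 4 KRP genes only 1 lies to the right of 0, and their 1 filled point lies to the left.

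Among genes with a mean signal above the array median, 18 of 58 of the chosen genes rose (31.0%) and 3 fell (5.17%), against 12.4% and 10.2% of all such genes. Counted by probe set instead of by gene, 24 of 80 rose and 5 fell, where 9.96% and 8.16% of all probe sets naming a single gene did. Without mutant replicate 2 the rises numbered 11 (17.5%, against 4.68% of all genes). They numbered 14 (22.2%) without mutant replicate 3 or without wild-type replicate 2, against 5.95% and 5.93% of all genes. With limma 0 falls remained past the threshold in each of these 3 fits, against 3.22%, 3.76% and 4.64% of all genes. At an unadjusted limma p below 0.05 these fits had 4, 4 and 5 falls, and the share of all genes was not taken there. Without wild-type replicate 1 there was 1 fall past the threshold (1.59%, against 7.50% of all genes).

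**Figure D2:**
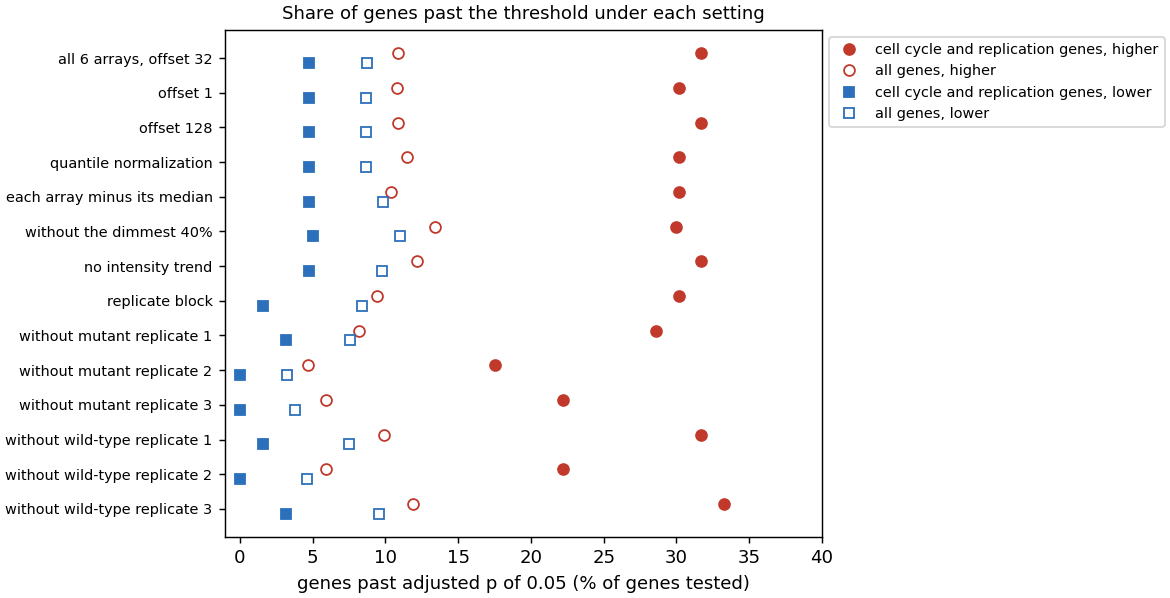
Share of genes past the threshold (x axis, % of genes tested) under each setting (rows), for the chosen genes as filled symbols and for all genes as open symbols. The filled circles for rises run from 17.5% without mutant replicate 2 to 33.3% without wild-type replicate 3, and in each row lie to the right of the open circle for all genes.

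Markers of tissue were read beside these counts. The green-tissue genes CAB2R, a light-harvesting protein gene, and OsrbcS, a Rubisco small subunit gene, were bright, and the summed signal of the 3 measured green-tissue genes was 26855 to 28360 on the mutant arrays and 27049 to 27410 on the wild-type arrays, with RBCS1 dim in each group. Of 4 shoot meristem genes 1 rose: OSH1, a knotted-class homeobox gene of the shoot meristem, gave 133, 136 and 127 on the mutant arrays, against 72.5, 51.2 and 68.2 on the wild-type arrays (difference 0.78, SE 0.10, adjusted p = 0.00112). That probe set is of the kind that can match several transcripts, and its wild-type mean of 64.0 lay below the wild-type array medians. A second, dimmer OSH1 probe set gave 82.0, 90.7 and 80.4 in the mutant, against 38.3, 20.4 and 26.4 in the wild type. It passed as higher (0.96, SE 0.10, adjusted p = 0.00053). The summed signal of the 4 genes, with the brighter OSH1 probe set, was 327 to 388 in the mutant and 258 to 283 in the wild type. OSH43, OSH6 and OSH71 did not pass, with -0.01, 0.18 and 0.18. Of 4 root genes OsSCR1 rose by 0.38 (SE 0.08), while the silicon transporter genes Lsi1 and Lsi2 had -0.14 and -0.01 and OsSHR1 had 0.27. Their sum was 468 to 504 in the mutant and 456 to 499 in the wild type. The sum of 10 seed genes was 744 to 800.0 in the mutant and 904 to 952 in the wild type, with GLUA-2, a glutelin gene, lower by a difference of -0.54 (SE 0.09). A second, dim GLUA-2 probe set, of the kind that can match several transcripts, had 0.13 (SE 0.07, adjusted p = 0.375). The main probe sets of Lsi2, OsSHR1, OSH6, OSH71, GLUA-1, GLUA-3, GLUB-4, PROLM25 and RAG were also dim in both groups. None of these markers was at 0, but dim ones cannot be told from background. Their part in the results was not tested. In whole seedlings, more dividing cells and more transcript per cell cannot be told apart.

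Of the ORC, which marks origins, 4 of 5 measured subunit genes rose and none fell, where 10.9% and 8.71% of all genes did. The class median was 0.47. At an unadjusted limma p below 0.05 the same 4 were higher and 0 lower, and the share of all genes was not taken there. ORC1, the largest subunit, which binds and uses ATP, gave signals of 163, 170.2 and 188 in the mutant, against 114, 99.8 and 91.5 in wild type (0.62, SE 0.09, adjusted p = 0.00293). ORC4, another ATPase-type subunit, gave 237, 274 and 233 in the mutant, against 117, 93.1 and 143 in wild type (0.91, SE 0.12, adjusted p = 0.00175). Each mutant array stood above each wild-type array for both genes. The ORC4 probe set is of the kind that can match several transcripts (suffix _s), and its second, dim one read 60.5, 66.3 and 65.2 in the mutant and 49.8, 44.2 and 53.8 in wild type, with 0.24 (SE 0.08, adjusted p = 0.0735).

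ORC3 gave 54.3, 60.8 and 72.9 in the mutant and 35.9, 29.3 and 44.5 in wild type (0.47, SE 0.10, adjusted p = 0.0158). ORC5 gave 42.1, 45.8 and 43.9 in the mutant and 33.6, 23.1 and 34.0 in wild type (0.29, SE 0.08, adjusted p = 0.0494). ORC3 and ORC5 lay below the array medians in most or all samples, so the added 32 weighs on the size of both differences. The ORC5 call lies at the threshold and was lost under 10 of the 12 alternatives that kept it, and ORC3 was not past it without mutant replicate 2, mutant replicate 3 or wild-type replicate 2. ORC2 overlapped between the groups, with 147, 157 and 147 in the mutant and 137, 135 and 148 in wild type (0.08, 95% interval -0.10 to 0.26, adjusted p = 0.631).

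All 6 genes of the MCM2 to MCM7 helicase, the ring that unwinds DNA at the replication fork, rose by similar amounts, between 0.44 and 0.68. MCM3 gave 335, 417 and 382 in the mutant, against 261, 209 and 204 in wild type (0.68, SE 0.12, adjusted p = 0.00528). MCM5 gave 323, 333 and 305 in the mutant, against 240.1, 186 and 172 in wild type (0.62, SE 0.11, adjusted p = 0.00806). MCM4 gave 479, 470.2 and 506 in the mutant, against 361, 308 and 284 in wild type (0.57, SE 0.10, adjusted p = 0.00706). For all 6 genes the lowest mutant array was above the highest wild-type array, and that highest wild-type array was replicate 1 in each of the 6.

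MCM7 gave 184, 190.5 and 190.0 in the mutant and 125, 119 and 106 in wild type (0.57, SE 0.08, adjusted p = 0.00278), a gap wider than the range within either group. MCM2 gave 434, 478 and 461 in the mutant and 356, 275 and 265 in wild type (0.58, SE 0.11, adjusted p = 0.0112). OsMCM6 gave 235, 249 and 248 in the mutant and 198, 174 and 145 in wild type (0.44, SE 0.11, adjusted p = 0.025). These last 2 were the MCM calls that depended on single arrays: MCM2 was lost without mutant replicate 2 or wild-type replicate 2, and OsMCM6 without any 1 mutant array and without wild-type replicate 2. The related genes MCM8 and MCM9, whose proteins are known in animals for roles in recombination, did not pass. MCM9 had -0.28 (95% interval -0.51 to -0.06, adjusted p = 0.122), with 132, 137 and 134 in the mutant and 188, 183 and 142 in wild type, and was lower past the threshold without wild-type replicate 3. MCM8 was dim throughout, with 36.6, 38.2 and 36.5 in the mutant and 36.6, 39.5 and 40.2 in wild type.

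RPA is a trimer of a large (70), a middle (32) and a small (14) subunit, and rice has several genes for the first 2. In rice the large subunits are known to assemble into separate complexes. RPA32A gave 442, 461 and 461 in the mutant, against 271, 224 and 266 in wild type (0.77, SE 0.10, adjusted p = 0.00113). RPA70B gave 281, 297 and 298 in the mutant, against 195, 194 and 162 in wild type (0.59, SE 0.09, adjusted p = 0.00397). RPA14 gave 531, 540.0 and 576 in the mutant, against 429.9, 336 and 409 in wild type (0.46, SE 0.11, adjusted p = 0.0209). For all 3 the groups were apart, and the RPA14 call was lost without mutant replicate 2, mutant replicate 3 or wild-type replicate 2.

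The other 4 RPA genes did not pass, with differences between -0.05 and 0.35. RPA70C gave 169.8, 179 and 224 in the mutant and 159, 144 and 125 in wild type (0.35, 95% interval 0.09 to 0.60, adjusted p = 0.0886). RPA32B gave 356, 367 and 364 in the mutant and 311, 339 and 332 in wild type (0.14, -0.05 to 0.33). RPA70A and RPA32C overlapped between the groups, with -0.05 (-0.27 to 0.17) and 0.01 (-0.15 to 0.17). On each array the log2 signals of related genes were subtracted. By this measure the mutant difference was larger for RPA32A by 0.64 than for RPA32B and by 0.76 than for RPA32C, and larger for RPA70B by 0.64 than for RPA70A and by 0.24 than for RPA70C. For each of the 5 pairs compared, chosen after their values were seen, the 2-sided exact permutation test of 3 against 3 arrays gave 0.1, the smallest p it allows (0.1 adjusted over the 5 pairs), so none could pass 0.05.

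PCNA, the clamp of the replicating polymerase, gave 982, 1208 and 1047 in the mutant, against 675, 535 and 604 in wild type. It rose 1.75-fold on the log2(signal + 32) scale (0.80, SE 0.11, adjusted p = 0.0022), with every mutant array above every wild-type array, and passed in all 13 alternative fits.

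**Figure D3:**
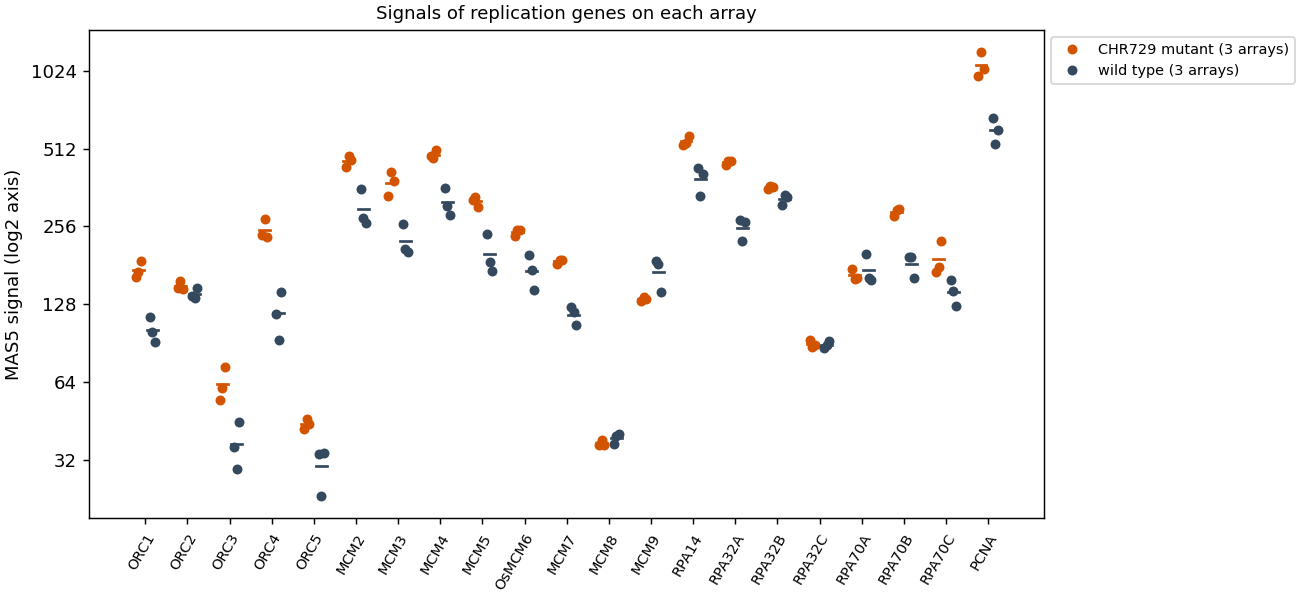
MAS5 signal of the 21 replication genes on each array (y axis, log2 scale), mutant arrays left and wild-type arrays right in each pair, with bars at the group means. The groups separate upwards in the mutant for MCM2 to MCM7, ORC1, ORC3, ORC4, ORC5, RPA14, RPA32A, RPA70B and PCNA. They also do so for RPA32B and RPA70C, which did not pass the threshold. MCM9, which did not pass either, separates downwards. The groups overlap for ORC2, MCM8, RPA32C and RPA70A. Heights of different genes come from different probe sets and are not comparable.

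Among the cyclins that act at mitosis, 3 of 4 measured B-type genes rose, with a class median of 0.56. CYCB2-2 gave 445, 575 and 548 in the mutant, against 255, 227 and 286 in wild type (0.94, SE 0.12, adjusted p = 0.0012). With the offset of 32 and all arrays, its difference and that of ORC4 were the highest of the 63 genes, and the order changed with the setting: with an offset of 1, CYCB2-2 had 1.02 and ORC4 had 1.09. Its second probe set, which may match related transcripts (suffix _x), read 347, 375 and 429 in the mutant, against 193, 219 and 237 in wild type (0.74, SE 0.11). The close relative CYCB2-1 rose too, with 252, 256 and 265 in the mutant and 184, 184 and 193 in wild type (0.40, SE 0.08, adjusted p = 0.0126), and the difference of CYCB2-2 was larger by 0.54 in the same subtraction on each array. The replicate arrays of CYCB2-1 lay close together in each genotype, yet its call was lost without mutant replicate 2 or mutant replicate 3.

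CYCB1-1 (LOC4327547) gave 578, 763 and 643 in the mutant, against 463, 334 and 368 in wild type (0.72, SE 0.13, adjusted p = 0.00815); without mutant replicate 2 its adjusted p lay at the threshold (0.05) and it was not called. CYCB1-3 was dim and overlapped, with 70.6, 63.7 and 42.2 in the mutant and 55.2, 38.0 and 63.0 in wild type (0.11, 95% interval -0.19 to 0.41). Of 3 A-type genes, CYCA2-1 rose: it gave 349.6, 377 and 403 in the mutant, against 212, 229.8 and 233 in wild type (0.67, SE 0.09, adjusted p = 0.00189). CYCA3-2 was apart between the groups but did not pass, with 141, 154 and 167 in the mutant and 127, 115 and 120.5 in wild type (0.28, 95% interval 0.09 to 0.47, adjusted p = 0.0743). CYCA1-4 overlapped, with 207, 212 and 218 in the mutant and 223, 225 and 213 in wild type (-0.05, -0.23 to 0.14).

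Of 9 measured D-type cyclin genes, CYCD3-1 rose, CYCD5-3 fell and 7 did not pass, with a class median of 0.06. Among all 17905 genes 10.9% rose and 8.71% fell, so 1 D-type call in each direction is near the shares of all genes. CYCD3-1 gave 159, 176 and 183 in the mutant, against 129, 116 and 124 in wild type (0.40, SE 0.09, adjusted p = 0.0162). CYCD5-3 gave 403, 386 and 278 in the mutant, against 491, 504 and 605 in wild type (-0.56, SE 0.14, adjusted p = 0.0302). Both genes were apart between the groups, and both calls were lost without mutant replicate 2, mutant replicate 3 or wild-type replicate 2, that of CYCD5-3 also without wild-type replicate 3.

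Other D-type genes near the threshold were CYCD4-2, with 165, 192 and 180.2 in the mutant and 156, 102 and 131 in wild type (0.39, 95% interval 0.13 to 0.66, adjusted p = 0.07), and CYCD3-2, with 103, 103 and 112 in the mutant and 86.1, 77.3 and 89.3 in wild type (0.25, 0.07 to 0.42, adjusted p = 0.087). CYCD4-2 passed as higher without wild-type replicate 1. The main CYCD5-2 probe set overlapped (0.07, adjusted p = 0.739), whereas its dimmer one read 78.4, 89.7 and 97.2 in the mutant and 62.9, 58.0 and 64.6 in wild type and passed as higher (0.36, SE 0.08, adjusted p = 0.0221). CYCD4-1, CYCD6-1, CYCD2-2 and CYCD5-1 overlapped, with differences of 0.06, 0.04, 0.03 and -0.03.

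None of the 9 remaining cyclins passed with limma in either direction, and the class median was -0.01. Among all genes 10.9% rose and 8.71% fell, and 9 genes are too few to tell 0 calls from those shares. Of the 9, 1 had an unadjusted limma p below 0.05, where the share of all genes was not taken. Many of these are known mainly for work outside the division cycle: C-type and T-type cyclins pair with kinases that act on RNA polymerase II, and H-type cyclin is part of the kinase complex that activates other CDKs. CYCH1-1 had 188, 199 and 198 in the mutant and 164, 175 and 183 in wild type (0.14, 95% interval -0.04 to 0.33). CYCP3-1 varied widely, with 704, 903 and 847 in the mutant and 468, 661 and 781 in wild type (0.37, 0.00 to 0.73, adjusted p = 0.225). CycC1;1, CYCT1-1 (LOC4352229), CYCT1_2, CYCL1-1, CYCF2-2, CYCP2-1 and CYCP4-1 lay between -0.08 and 0.02.

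Of 11 measured CDK genes, 1 rose and 1 fell, and the class median was -0.04. These counts are near the shares of all genes, of which 10.9% rose and 8.71% fell. CDKB2-1, of the plant-specific B class whose transcripts are known to peak around mitosis, gave 454, 469 and 441 in the mutant, against 284, 331 and 329 in wild type (0.49, SE 0.09, adjusted p = 0.0091), and its call was lost without mutant replicate 2. CDKF-3 gave 621, 553 and 502 in the mutant, against 729, 724 and 762 in wild type (-0.39, SE 0.10, adjusted p = 0.0338). That call was lost with the replicate number as a block and without any 1 array other than mutant replicate 1. The A-class kinases, which act throughout the cycle, lay near the threshold. CDKA-1 gave 600.0, 635 and 609.5 in the mutant and 464, 463 and 553 in wild type, on a probe set of the _s kind (0.30, 95% interval 0.09 to 0.52, adjusted p = 0.0829). It passed as higher without an intensity trend and without wild-type replicate 3. The main CDKA-2 probe set, of the _x kind, overlapped (0.22, adjusted p = 0.232), while its 2 dim ones passed as higher with 0.29 (SE 0.07, adjusted p = 0.0355) and 0.31 (SE 0.08, adjusted p = 0.0432).

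Kinases with roles known mainly outside the division cycle did not pass in their main probe sets. CDKG-1 and CDKG-2 had -0.04 and -0.18, CDKC-1, of the class that acts on RNA polymerase II, had -0.15, and CDKE-1, the kinase of the Mediator complex, had -0.02 with a wide spread of 959.7, 1399 and 1399 in the mutant and 1447, 1058 and 1271 in wild type. Dimmer probe sets of CDKE-1 and CDKG-2 passed as lower, with -0.33 (SE 0.09, adjusted p = 0.0376) and -0.39 (SE 0.09, adjusted p = 0.0235). Of 2 kinases whose classes are known to activate other CDKs, in Arabidopsis for the F class, CDKD-1 had -0.06 and CDKF-1 had -0.19 (95% interval -0.38 to 0.00, adjusted p = 0.226). CDKF-4 had 0.26 (0.05 to 0.46, adjusted p = 0.124). In all, 7 of the 14 genes with several probe sets had at least 1 that passed, in 6 of them another did not, and no gene had probe sets that passed in opposite directions. The share among all genes with several probe sets was not taken.

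Of 4 measured KRP inhibitor genes, 1 fell and 3 did not pass. KRP4 fell, with 299, 287 and 285 in the mutant, against 410.4, 374 and 369 in wild type (-0.37, SE 0.09, adjusted p = 0.0251), while its dim probe set had -0.18 (adjusted p = 0.337). KRP1 gave 597, 605 and 587 in the mutant and 716, 695 and 680.0 in wild type (-0.21, 95% interval -0.40 to -0.03, adjusted p = 0.162). KRP6 gave 512, 523 and 528 in the mutant and 622, 534 and 638 in wild type (-0.18, -0.40 to 0.03, adjusted p = 0.309). These 3 inhibitor genes had every mutant array below every wild-type array, as did 19.8% of all genes. Only KRP4 passed, where 8.71% of all genes fell. The KRP4 call was lost with the replicate number as a block and without any 1 array other than wild-type replicate 3. KRP5 overlapped widely, with 190.1, 226 and 170.0 in the mutant and 197, 139 and 232 in wild type (0.06, -0.28 to 0.40). The 2 genes matched through the name CDC25, which are also known as the arsenate reductase genes ACR2.1 and ACR2.2 in rice, did not pass. CDC25.1 gave 1474, 1492 and 1417 in the mutant and 1760.5, 1584 and 1464 in wild type (-0.13, -0.33 to 0.08), and CDC25.2 had 0.11 (-0.12 to 0.34), with overlapping groups for both.

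**Figure D4:**
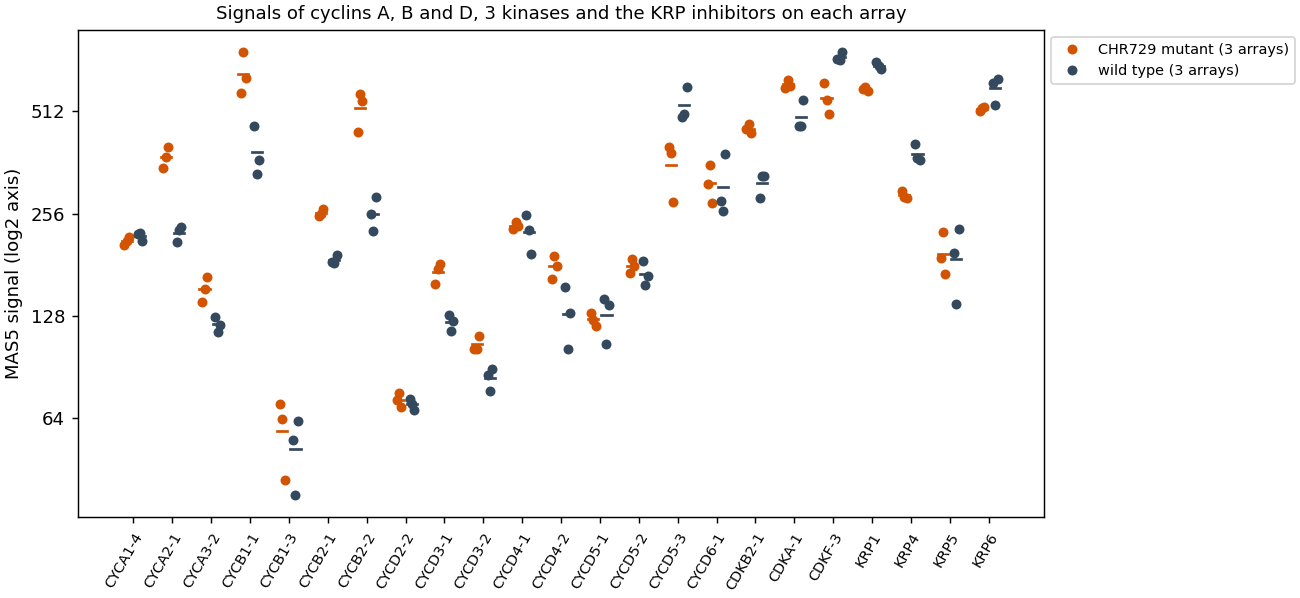
MAS5 signal on each array (y axis, log2 scale) of A-, B- and D-type cyclin genes, the kinase genes CDKB2-1, CDKA-1 and CDKF-3 and the KRP genes, mutant arrays left and wild-type arrays right in each pair, with bars at the group means. CYCB1-1 is LOC4327547. CYCA2-1, CYCB1-1, CYCB2-1, CYCB2-2, CYCD3-1 and CDKB2-1 separate upwards in the mutant, and CYCD5-3, CDKF-3 and KRP4 downwards. Of the genes that did not pass, CYCA3-2, CYCD3-2, CYCD4-2 and CDKA-1 also separate upwards, and KRP1 and KRP6 downwards.

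Arrays of a genotype held similar ranks across many of these genes. Among the 20 genes that rose, mutant replicate 1 was the lowest mutant array in 16 and the highest in none, and wild-type replicate 1 was the highest wild-type array in 13. Even so, mutant replicate 1 stood above wild-type replicate 1 for each of the 20, since the groups did not overlap. Because genes of an array share its sample, these counts describe the arrays and are not independent observations. The cause was not tested.

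A further 18 measured genes of the same pathways lie outside the name rule, among them subunits of the clamp loader RFC, DNA polymerase delta, flap endonucleases, retinoblastoma-related proteins and inhibitors of the SIAMESE type. Of these, 3 rose and 1 fell, beside the 10.9% and 8.71% of all genes, and their median difference was 0.09. FEN1A, a nuclease that trims Okazaki fragments, gave 335, 349 and 356 in the mutant, against 194, 179 and 241 in wild type (0.69, SE 0.11, adjusted p = 0.00362), and a dim FEN1A probe set had -0.14 (adjusted p = 0.437). OsRFC4 gave 277, 274 and 275 in the mutant, against 192, 193 and 179 in wild type (0.48, SE 0.08, adjusted p = 0.00564). OspolD2, a subunit gene of DNA polymerase delta, gave 123, 143 and 154 in the mutant, against 90.2, 90.9 and 88.2 in wild type (0.49, SE 0.09, adjusted p = 0.00704). All 3 had groups apart. The other RFC genes did not pass, with 0.17 for OsRFC1, 0.09 for OsRFC2, 0.07 for OsRFC3 and 0.23 for OsRFC5. Among them OsRFC3 and OsRFC5 were also apart, with the mutant above. The catalytic subunit gene OspolD1 did not pass either, with 0.27 (adjusted p = 0.17).

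OsTOP6A, a gene for the A subunit of topoisomerase VI, fell, with 365, 339 and 318 in the mutant, against 558, 520.5 and 502 in wild type (-0.58, SE 0.09, adjusted p = 0.00401). Its partner gene TOP6B had 0.05 (95% interval -0.19 to 0.28). EL2, a CDK inhibitor gene of the SIAMESE type, varied widely within a genotype, with 879, 656 and 441 in the mutant and 1440.1, 953 and 818 in wild type (-0.69, SE 0.24, adjusted p = 0.11). Its dimmer probe set gave 281, 217 and 182 in the mutant, against 407, 326 and 298 in wild type, and passed as lower (-0.55, SE 0.15, adjusted p = 0.0442). SMR1, of the same type, overlapped between the groups (-0.45, 95% interval -1.06 to 0.15), as did OsRBR1 (0.36, 0.10 to 0.63, adjusted p = 0.0885), OsRBR2 (-0.13), CKS1 (0.26) and MYB3R-2 (0.10), a transcription factor gene of the family that drives mitotic genes.

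**Figure D5:**
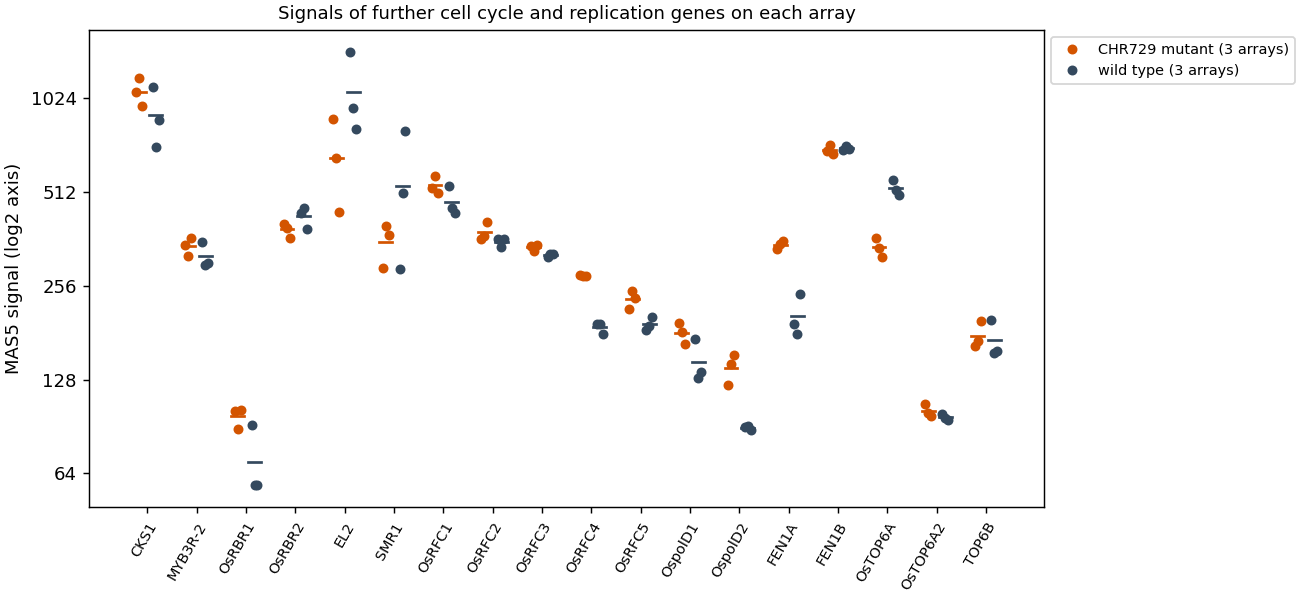
MAS5 signal on each array (y axis, log2 scale) of 18 further cell cycle and replication genes, mutant arrays left and wild-type arrays right in each pair, with bars at the group means. FEN1A, OsRFC4 and OspolD2 separate upwards in the mutant and OsTOP6A downwards, while EL2 and SMR1 spread widely within a genotype. OsRFC3 and OsRFC5, which did not pass the threshold, also separate upwards.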

How the data were processed

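Total RNA of 3 CHR729 mutant and 3 wild-type seedling samples was hybridized to Affymetrix Rice Genome Arrays. The authors deposited a linear intensity for each probe set, made with MAS5 per the submitters' processing notes. The MAS5 settings and scaling target were not given in the sources used here. The submitters' own test, SAM, was not rerun. Of 57381 probe sets, 123 controls were left out and 57258 tested. The array annotation named 1 gene for 22436, and gene IDs were joined to the rice gene table of assembly ASM3414082v1, which held all 17905. Groups were compared on log2(signal + 32) with limma 3.58.1 under R 4.3.3 (lmFit, eBayes with an intensity trend), 2-sided, with Benjamini-Hochberg adjustment over all tested probe sets and a threshold of 0.05. Intervals are 95%. The labels call the replicates biological and do not say whether they came from separate sowings or plants, so p-values measure only the spread between these samples. The number of arrays, 3 per group, limits the precision.

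The fit was tested on a simulated table of 57258 probe sets, whose spread followed the trend and prior that limma estimates. Of 50 probe sets changed by each fold, 29 were called at 1.5-fold, 48 at 2-fold and 50 at both 4-fold and 8-fold, and 7 of the 184 calls were probe sets left unchanged. The genes and lists were chosen with earlier results of these data known. In each class, per-array values are given for up to 4 genes with the lowest p past the threshold, the brightest gene, any that moved against its class, and each KRP and PCNA; further genes given by array were chosen after their values were seen. The alternatives were quantile normalization, subtracting each array's median, offsets of 1 or 128, leaving out the dimmest 40%, no intensity trend, a replicate block, other probe set choices and leaving out each array. Plots used matplotlib 3.10.9 and tables pandas 2.3.3 under Python 3.11.15.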

Additional observations from a re-analysis of the deposited data

How the results depend on the processing

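Of the 23 genes that passed, 11 kept the call under every alternative that kept their probe set (PCNA, CYCA2-1, CYCB2-2, MCM3, MCM4, MCM5, MCM7, ORC1, ORC4, RPA32A and RPA70B), 9 lost it only when an array was left out, and CDKF-3, KRP4 and ORC5 lost it under another setting too. No gene that passed changed sign. Rises among the 63 genes numbered 18 to 22 under the offsets, the normalizations, the brightness filter, the fit without a trend, the block and the other probe set choices. Leaving out an array gave 11 to 21 rises and 0 to 2 falls by gene, 12 to 23 and 0 to 4 by probe set, 3 to 5 and 1 to 2 among the further pathway genes, and 1358 to 3511 and 916 to 2838 over all probe sets. Deviations from the group means correlated between arrays of the same replicate number at 0.01, -0.17 and 0.09 over probe sets, so the numbers were not taken to pair samples. With the replicate number as a block, the 63 genes had 19 rises and 1 fall, their probe sets 2 falls and the further genes 2 falls. Taking each gene's probe set with the lowest p gave 22 rises and 5 falls. Why these counts moved was not tested. Detection calls were not used here, so dim probe sets such as those of MCM8, ORC3, ORC5 and CYCB1-3 cannot be told from background.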
